A study of Sus scrofa with 12 samples.

Results

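The core circadian clock is built from a small set of transcription factors and their inhibitors, and 10 of its genes were examined here in the loin muscle of Iberian pigs. They were taken as a list from the known clock machinery, whatever their values: *BMAL1* (annotated as *ARNTL*), *CLOCK*, *PER1*, *PER2*, *PER3*, *CRY1*, *CRY2*, *NR1D1*, *NR1D2* and *DBP*, which are 10 of the 28224 annotated genes on the chromosomes of Sscrofa11.1. RNA of the longissimus dorsi was sequenced as 1 library per pig in 12 castrated males, 6 with a high (H) and 6 with a low (L) estimated breeding value (EBV) for intramuscular fat (IMF). The IMF content given in the sample labels lay between 10.62 and 13.8% in H and between 1.7 and 2.28% in L. The authors report for their L group a mean IMF content above all of these L values, and this difference was not resolved here. All pigs ranged freely with acorns and grass at will, pigs sharing both or 1 parent were avoided, and muscle was taken at slaughter. The free-range and slaughter batch of each pig and the hour at which its muscle was taken are not given in the sources used here, so batch and group cannot be told apart.

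In the clock, BMAL1 and CLOCK bind together to E-box sequences and switch on the *PER*, *CRY* and *NR1D* genes and the output factor *DBP*. The PER and CRY proteins return to the nucleus and block BMAL1 and CLOCK, which closes a loop of about a day, and the NR1D proteins (REV-ERBs) repress *BMAL1* through ROR elements in a further loop. In skeletal muscle this clock is known to time the use of glucose and fatty acids, and in animals kept on a regular day *BMAL1* and *DBP* transcripts peak at roughly opposite times.

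The value of a gene was the sum of the FPKM (fragments per kilobase of transcript, relative to the mapped fragments of the library) of its assembled transcripts, scaled between libraries. Sums of FPKM depend on how each library was assembled, so another measure, here called common exon coverage, was set beside them. It took the exon bases that were covered in all 12 libraries and lie in no other gene. Over these bases the coverage given for the assembled transcripts was added up and averaged. That coverage is 1 mean per whole transcript, so bases outside the kept ones also shape it. This second measure was chosen after the FPKM had been seen. The files held 30535 to 44609 transcripts per library, with coverage of 9.88 to 17.6 Gb. The muscle genes *MYLPF* (fast myosin light chain) and *TNNC2* (fast troponin C) lay at 6633 to 12777 and 4436 to 10542 FPKM. *CKM*, the muscle creatine kinase, was listed at 0 in H4 and L2, so that a value of 0 in these files is not a sign of a silent gene. Each pig gave 1 library, and all p-values measure the spread between these 12 pigs. In muscle pieces, fewer cells of a type and less RNA per cell cannot be told apart.

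The promoters of 5 clock genes are printed here because these genes form the pairs with the highest and the lowest correlation between pigs on either measure. Each window runs from 250 bases before the annotated gene start (RefSeq) to 30 bases after it in Sscrofa11.1, 5′ to 3′ on the strand of the gene, and capitals mark the motifs found. *BMAL1* is shown at chr2:46025145-46025424 (minus strand), *PER3* at chr6:68487384-68487663 (plus strand), *CRY1* at chr5:13275015-13275294 (plus strand), *NR1D2* at chr13:10756704-10756983 (plus strand) and *DBP* at chr6:53993015-53993294 (minus strand).
BMAL1: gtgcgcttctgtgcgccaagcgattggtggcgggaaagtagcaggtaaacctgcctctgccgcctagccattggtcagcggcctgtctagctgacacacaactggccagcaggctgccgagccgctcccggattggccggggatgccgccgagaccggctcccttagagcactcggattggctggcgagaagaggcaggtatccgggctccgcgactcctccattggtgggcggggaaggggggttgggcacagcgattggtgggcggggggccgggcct
PER3: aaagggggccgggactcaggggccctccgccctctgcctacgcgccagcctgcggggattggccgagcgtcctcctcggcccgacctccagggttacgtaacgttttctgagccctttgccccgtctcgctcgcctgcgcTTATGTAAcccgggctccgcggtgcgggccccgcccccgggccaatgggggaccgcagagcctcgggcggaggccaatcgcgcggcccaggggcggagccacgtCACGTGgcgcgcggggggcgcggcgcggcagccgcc
CRY1: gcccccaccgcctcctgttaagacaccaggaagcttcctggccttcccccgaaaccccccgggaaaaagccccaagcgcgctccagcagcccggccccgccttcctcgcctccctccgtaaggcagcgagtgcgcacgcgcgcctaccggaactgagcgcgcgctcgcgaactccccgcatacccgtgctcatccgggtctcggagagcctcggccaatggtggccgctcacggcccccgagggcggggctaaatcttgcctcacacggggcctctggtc
NR1D2: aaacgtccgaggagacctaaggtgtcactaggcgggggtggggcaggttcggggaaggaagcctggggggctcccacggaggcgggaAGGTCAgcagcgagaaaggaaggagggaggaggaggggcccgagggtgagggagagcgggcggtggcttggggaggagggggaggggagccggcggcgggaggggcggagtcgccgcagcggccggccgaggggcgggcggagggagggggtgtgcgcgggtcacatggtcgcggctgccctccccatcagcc
DBP: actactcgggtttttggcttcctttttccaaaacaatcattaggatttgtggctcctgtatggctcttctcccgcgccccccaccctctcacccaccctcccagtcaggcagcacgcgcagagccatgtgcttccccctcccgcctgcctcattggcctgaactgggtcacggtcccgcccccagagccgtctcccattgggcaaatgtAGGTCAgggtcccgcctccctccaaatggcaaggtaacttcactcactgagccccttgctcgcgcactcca
The motifs searched on both strands were the E-box CACGTG, which is its own reverse complement, the E′-box CACGTT, the D-box TTATGNAA and the half-site of the ROR element, AGGTCA. The motifs found lay at separate places, with no overlap. The *PER3* window held an E-box whose first base lay at -6 from the gene start and a D-box at -110, and it was the only one of the 10 windows that held both of these motifs. *NR1D2* and *DBP* each held AGGTCA, at -163 and -41. Of the windows not printed, *PER1* held an E-box at -93, *CRY2* an E′-box on the minus strand at -140 and AGGTCA at -18, and *NR1D1* an E′-box on the minus strand at -32. The windows of *BMAL1*, *CLOCK*, *PER2* and *CRY1* held none of these letters. Among 19556 windows of protein-coding genes, 7.43% held the E-box, 5.01% the E′-box, 2.72% the D-box and 13.4% AGGTCA, so that a match is common and is given as a description.

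No clock gene passed limma between H and L at an adjusted p under 0.1. On FPKM 0 of 10 were called, beside 0.00806% of the 12406 genes tested, and at an unadjusted p under 0.05 there was 1 (*NR1D1*), beside 7.28% of all genes. *NR1D1* was listed at 0 in all H pigs and passed the filter on low values, a mean of at least 0.5 FPKM in H or in L, only through the L pigs, so that nothing is read from its p. With common exon coverage as the value 0 of 9 were called, beside 0.0101% of all genes tested on this measure, and 1 (*BMAL1*) had an unadjusted p under 0.05, beside 10.02%. All fold changes below are differences of log2(value + 0.5), H minus L, a scale that understates the change of low genes.

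*BMAL1* (22 exons, minus strand of chromosome 2, 45895637 to 46025174) encodes the partner without which CLOCK cannot bind DNA. Its level in the H pigs had a lowest value of 1.69, a median of 2.36 and a highest value of 2.95 FPKM, against 1.14, 1.66 and 2.57 FPKM in the L pigs. The 2.95 FPKM of H2 and the 2.50 of L4 were sums of pieces, none with an annotated intron chain. Common exon coverage in these pigs was 1.92 and 1.28. The groups overlapped, but all 6 H pigs lay above the median of the L pigs. The log2 fold change was 0.32 (SE 0.18; limma adjusted p = 0.730; exact permutation test, two-sided, p = 0.117). On common exon coverage, where the H pigs ran from 1.63 to 2.88 and the L pigs from 1.09 to 2.55, it was 0.37 (SE 0.16; limma adjusted p = 0.471; exact permutation test, p = 0.0563). This was the clock gene with the smallest p on common exon coverage, and it did not pass the adjustment.

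*CLOCK* (minus strand of chromosome 8, 54793323 to 54910192) encodes the other activator. Its FPKM was narrow in the H pigs, with a lowest value of 5.22, a median of 6.08 and a highest value of 6.25, and wide in the L pigs, with 5.22, 7.45 and 13.03. The high L values came from L2, L3 and L6, with 10.8, 13.03 and 9.33 FPKM. In these 3 libraries *CLOCK* was assembled in separate pieces with a break between 54819713 and 54819963, and the FPKM of the pieces were added. The common exon coverage of *CLOCK* was 5.28, 6.28 and 4.48 in the same 3 libraries, within the 2.71 to 6.05 of the H pigs except in L3. The log2 fold change was -0.36 on FPKM (SE 0.22; limma adjusted p = 0.739) and -0.17 on common exon coverage (SE 0.17; limma adjusted p = 0.769). The 3′ exons of *CLOCK* share 3027 bases with *TMEM165* on the opposite strand, 44.3% of its exonic bases, which the common exon coverage leaves out.

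The 3 *PER* genes encode the repressors whose transcripts BMAL1 and CLOCK raise. *PER1* (minus strand of chromosome 12, 53361863 to 53376723) was the most abundant of them, at a lowest value of 14.1, a median of 20.5 and a highest value of 24.4 FPKM in H and 10.9, 20.9 and 32.5 in L. The medians were nearly the same, and the log2 fold change was -0.03 (SE 0.25; limma adjusted p = 0.985). *PER2* (minus strand of chromosome 15, 137793419 to 137837854) lay at 1.13, 2.11 and 2.99 FPKM in H and 1.17, 1.98 and 3.58 in L. Its log2 fold change of 0.07 on FPKM (SE 0.25; limma adjusted p = 0.961) was of the other sign on common exon coverage, -0.24 (SE 0.27; limma adjusted p = 0.800). *PER3* (plus strand of chromosome 6, 68487634 to 68548718) varied more on FPKM than the other 2, with 2.85, 4.95 and 8.996 FPKM in H and 1.22, 3.19 and 8.22 in L. On common exon coverage the SD over the pigs on the log2 scale was larger for *PER2*, 0.52, than for *PER3*, 0.48. Of the 6 H pigs 5 lay above the L median, and the log2 fold change was 0.50 on FPKM (SE 0.38; limma adjusted p = 0.789) but 0.08 on common exon coverage (SE 0.26; limma adjusted p = 0.948). The groups overlapped for all 3 genes.

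The CRY proteins are the partners of the PER proteins in repression. *CRY1* (plus strand of chromosome 5, 13275265 to 13429566) had a lowest value of 4.28, a median of 5.22 and a highest value of 9.66 FPKM in H and 2.93, 5.42 and 8.65 in L. The high value in H came from H5 alone, since the other 5 H pigs lay at 5.46 or under. In H5 *CRY1* was assembled in pieces, none with an annotated intron chain, and their FPKM were added. The common exon coverage of *CRY1* was 3.29 in H5, within the 2.44 to 4.29 of the other H pigs. *CRY1* shares 2397 exonic bases with *MTERF2* on the same strand and 1581 with *TMEM263* on the opposite strand, so its FPKM can hold reads of a neighbour. *CRY2* (minus strand of chromosome 2, 16587101 to 16620380) had 5.49, 9.88 and 14.5 FPKM in H and 4.95, 11.7 and 17.6 in L. Neither differed between the groups by more than the spread of the pigs, with log2 fold changes of 0.08 for *CRY1* (SE 0.23; limma adjusted p = 0.946) and -0.16 for *CRY2* (SE 0.29; limma adjusted p = 0.912).

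*NR1D2* (plus strand of chromosome 13, 10756954 to 10791219), which encodes REV-ERBβ, was the most abundant clock gene, with a median over all pigs of 29.4 FPKM. In H it had a lowest value of 12.3, a median of 27.3 and a highest value of 31.9 FPKM, and in L 15.5, 32.7 and 36.9. The lowest H pig was H5 and the lowest L pig L3. No H pig lay above the L median, yet the groups overlapped and the log2 fold change was -0.22 (SE 0.26; limma adjusted p = 0.862).

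*NR1D1* (plus strand of chromosome 12, 22263549 to 22274131), which encodes REV-ERBα, was listed at 0 in all 6 H pigs and in L3 and L6, and at 8.91, 3.06, 0.59 and 22.9 FPKM in L1, L2, L4 and L5. No fold change is given, because the H group is listed at 0. Its exons share 2985 bases, 41.1% of them, with *THRA* on the opposite strand, and no exon base outside *THRA* was covered on its own strand in all 12 libraries. When transcripts of either strand were counted over the exons of *NR1D1* that lie in no other gene, an alternative added after seeing the data, coverage was present in all 12 pigs. It was 2.22 to 9.42 in H and 0.48 to 8.73 in L, with both groups overlapping. The zeros on FPKM thus stood beside assembled transcripts of either strand over this gene in every pig. *NR1D1* was left out of the correlations, which asked for a value above 0 in at least 10 libraries.

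*DBP* (4 exons, minus strand of chromosome 6, 53986955 to 53993044) encodes a transcription factor that binds D-boxes and carries the rhythm of BMAL1 and CLOCK to output genes. It had a lowest value of 1.85, a median of 4.50 and a highest value of 8.56 FPKM in H, and 1.32, 6.00 and 12.3 in L. Both groups held a pig at the low end, H5 and L3, and a pig at the high end, H4 and L2. The log2 fold change between the groups was -0.24 (SE 0.44; limma adjusted p = 0.912; exact permutation test, two-sided, p = 0.617). *DBP* varied the most over the 12 pigs of the 9 clock genes above 0 in all libraries: its highest value was 9.33-fold its lowest, against 7.39-fold for *PER3* and 2.50-fold for *CLOCK*. The SD of *DBP* over the pigs was 0.80 on the log2 scale, at percentile 88.1 of all genes tested, whose median was 0.39. Its SD in common exon coverage was 0.82, at percentile 97.6, beside a median of 0.26.

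**Figure D1:**
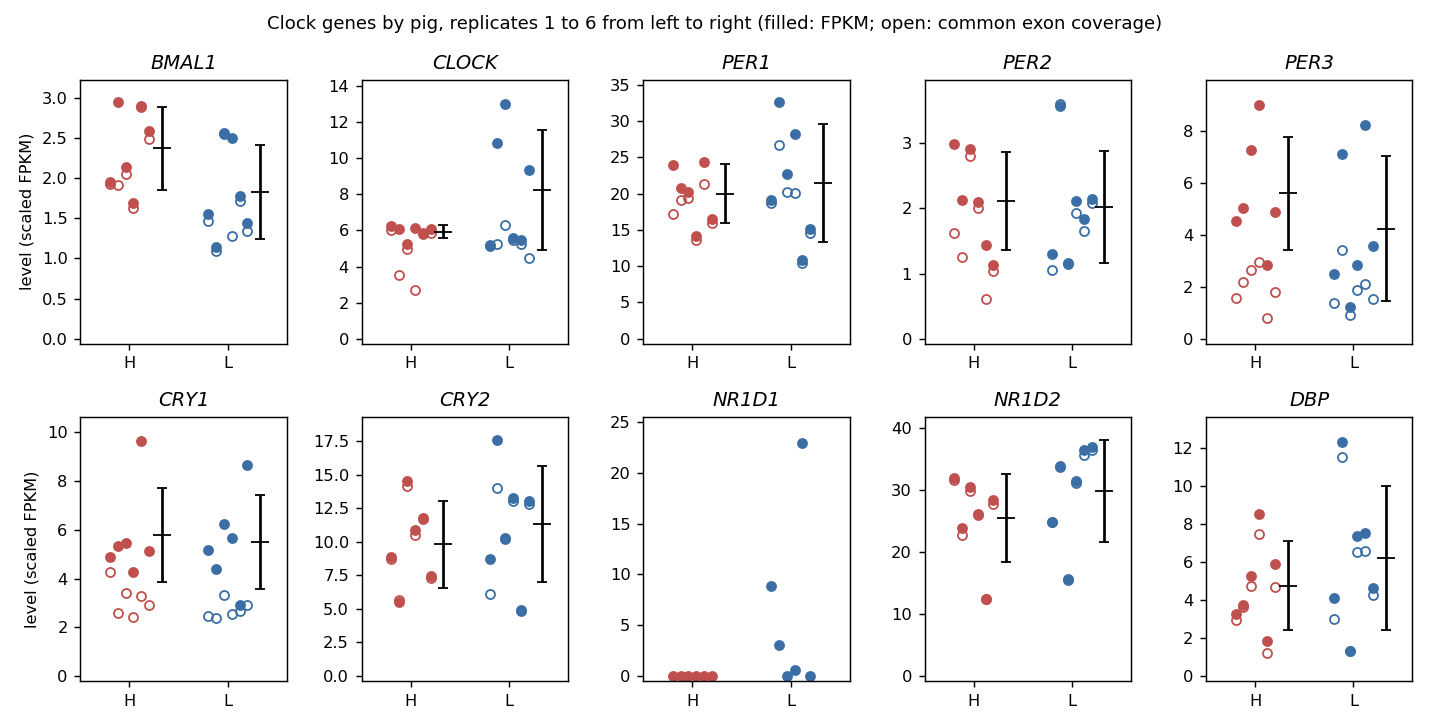
Level of each clock gene by pig, in scaled FPKM (filled points) and as common exon coverage on the same axis (open points), for the 6 H and 6 L pigs in the order of their replicate number, with 1 panel per gene. The groups overlap for every gene with values in both, *DBP* spreads the most of the 9 genes above 0 in all libraries, and *NR1D1* is listed at 0 in all H pigs.

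By median FPKM over the 12 pigs the order of the clock genes was *NR1D2* (29.4), *PER1* (20.5), *CRY2* (10.6), *CLOCK* (6.08), *CRY1* (5.25), *DBP* (4.93), *PER3* (4.70), *PER2* (2.11) and *BMAL1* (2.05), with *NR1D1* at 0. Neighbours in this order overlapped in their ranges over the pigs. *NR1D2*, at 12.3 to 36.9 FPKM, did not overlap with *PER2*, at 1.13 to 3.58, or *BMAL1*, at 1.14 to 2.95. *CLOCK*, at 5.22 FPKM or more in every pig, lay above *BMAL1* in all of them, though its FPKM can hold reads of *TMEM165*.

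**Figure D2:**
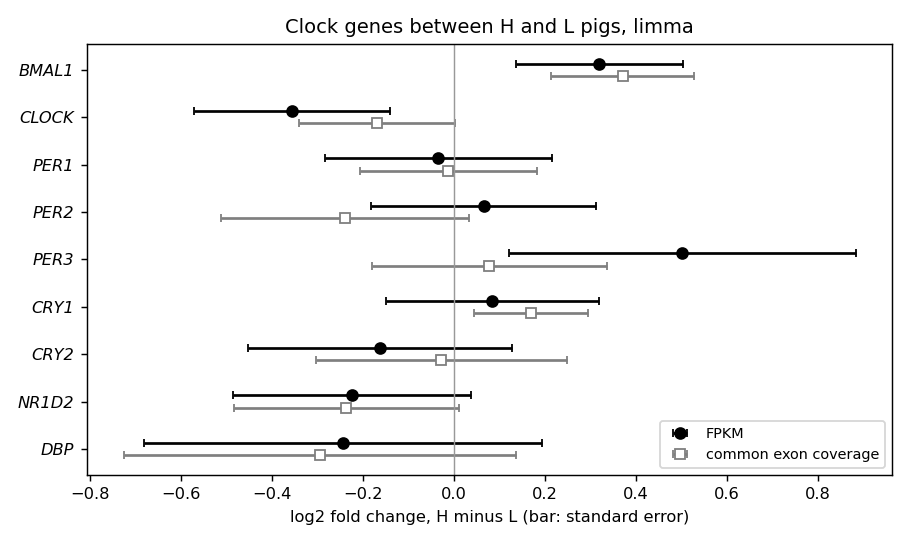
Log2 fold change between H and L (x axis, H minus L, on log2(value + 0.5)) of 9 clock genes from limma, with bars of 1 standard error, for FPKM and common exon coverage in 6 H and 6 L pigs. The values run from -0.36 for *CLOCK* to 0.50 for *PER3* on FPKM, and *BMAL1* lies at 0.32 and 0.37.

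The clock genes were then compared with each other over the 12 pigs, which asks whether pigs with much of one clock transcript had much or little of another. The 9 genes made 36 pairs, which share pigs and genes and so are not independent of each other. On FPKM 2 pairs passed at an adjusted p under 0.1 over the 36, both positive and both with *DBP*, and 8 had an unadjusted p under 0.05 (permutation tests, two-sided). In 2 of the 36 pairs r was at least 0.7, beside 1.09% of all pairs of tested genes, and in 0 it was -0.7 or lower, beside 0.991%. By common exon coverage 9 pairs passed, 6 positive and 3 negative, and 12 had an unadjusted p under 0.05. There r was at least 0.7 in 5 pairs, beside 1.90% of all pairs of genes, and -0.7 or lower in 3, beside 1.58%.

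*DBP* and *PER3*, both targets of BMAL1 and CLOCK, moved together. On FPKM r was 0.75 (permutation test, p = 0.00494, adjusted p = 0.0889) and Spearman's rho 0.66 (p = 0.0227, permutation test). Common exon coverage gave an r of 0.91 (permutation test, p = 0.00011, adjusted p = 0.00396) and a rho of 0.87 (p = 0.00059, permutation test). The relation had the same sign in each group: on common exon coverage r was 0.94 within the 6 H pigs and 0.97 within the 6 L pigs. H5 and L3 had the lowest *DBP* and the lowest *PER3*, at 1.23 and 1.33 for *DBP* and 0.80 and 0.93 for *PER3* in common exon coverage. Without these 2 pigs, which are the 2 farthest from the median of *DBP* on this measure, r was 0.79 (permutation test, p = 0.00609, adjusted p = 0.111), and on FPKM it was 0.50 (permutation test, adjusted p = 0.552). Leaving out 1 pig at a time, r ran from 0.60 (without L3) to 0.85 on FPKM and from 0.88 to 0.94 on common exon coverage.

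*DBP* also moved with *NR1D2*. On FPKM r was 0.77 (permutation test, p = 0.00405, adjusted p = 0.0889) and rho 0.57 (p = 0.0551, permutation test). They were 0.80 (permutation test, p = 0.00199, adjusted p = 0.0239) and 0.58 (p = 0.0515, permutation test) on common exon coverage. This relation rested on H5 and L3, the pigs with the lowest *NR1D2*, at 12.4 and 15.6 in common exon coverage against 22.7 to 36.3 in the other 10. Without both, r fell to 0.32 on FPKM and 0.37 on common exon coverage, with adjusted p = 0.608 and adjusted p = 0.516 (permutation tests).

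*PER2* followed *PER3* and *DBP* on common exon coverage, with r of 0.80 with *PER3* (permutation test, p = 0.00168, adjusted p = 0.0239) and 0.78 with *DBP* (permutation test, p = 0.00281, adjusted p = 0.0253). On FPKM the same relations had r of 0.58 and 0.52 and did not pass (permutation tests, adjusted p = 0.190 and adjusted p = 0.258). Without H5 and L3, r on common exon coverage was 0.70 with *PER3* and 0.68 with *DBP* (permutation tests, adjusted p = 0.275 for each). The lowest *PER2* was that of H5, at 0.61 in common exon coverage, and the highest that of L2, at 3.60, and these were also the pigs with the lowest and the highest *DBP*.

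*BMAL1*, the activator, ran opposite to these genes. On common exon coverage r was -0.75 with *DBP* (permutation test, p = 0.00499, adjusted p = 0.0327), -0.73 with *NR1D2* (permutation test, p = 0.00593, adjusted p = 0.0327) and -0.71 with *PER2* (permutation test, p = 0.0103, adjusted p = 0.0463). With *PER3* r was -0.59 and did not pass (permutation test, adjusted p = 0.147), but with group means removed it was -0.78 and passed (permutation test, adjusted p = 0.0408). On FPKM all 4 were negative, at -0.59, -0.60, -0.47 and -0.37, and none passed the adjustment. For *BMAL1* with *DBP* the sign was the same within each group, with r of -0.74 in H and -0.83 in L on common exon coverage. H5 held the highest *BMAL1* in common exon coverage, 2.88, with the lowest *DBP*, and L2 the lowest *BMAL1*, 1.09, with the highest *DBP*, 11.5. Without H5 and L3, r with *DBP* was -0.42 on FPKM and -0.49 on common exon coverage (permutation tests, adjusted p = 0.552 and adjusted p = 0.516).

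*NR1D2* also passed with *PER2* (r of 0.73, adjusted p = 0.0327) and *PER3* (r of 0.67, adjusted p = 0.0652) on common exon coverage (permutation tests). The remaining pairs did not pass over the 12 pigs on either measure. *BMAL1* and *CLOCK*, which work as a pair of proteins, had r of -0.26 on FPKM (permutation test, adjusted p = 0.569) and 0.29 on common exon coverage. The latter was 0.58 with group means removed and passed (permutation test, adjusted p = 0.0707). *DBP* with *PER1* had r of -0.13 on FPKM, *PER1* with *PER2* 0.32 and *CRY1* with *CRY2* 0.43. The lowest r on FPKM was that of *CRY1* with *DBP*, -0.60 (permutation test, p = 0.0364, adjusted p = 0.190).

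**Figure D3:**
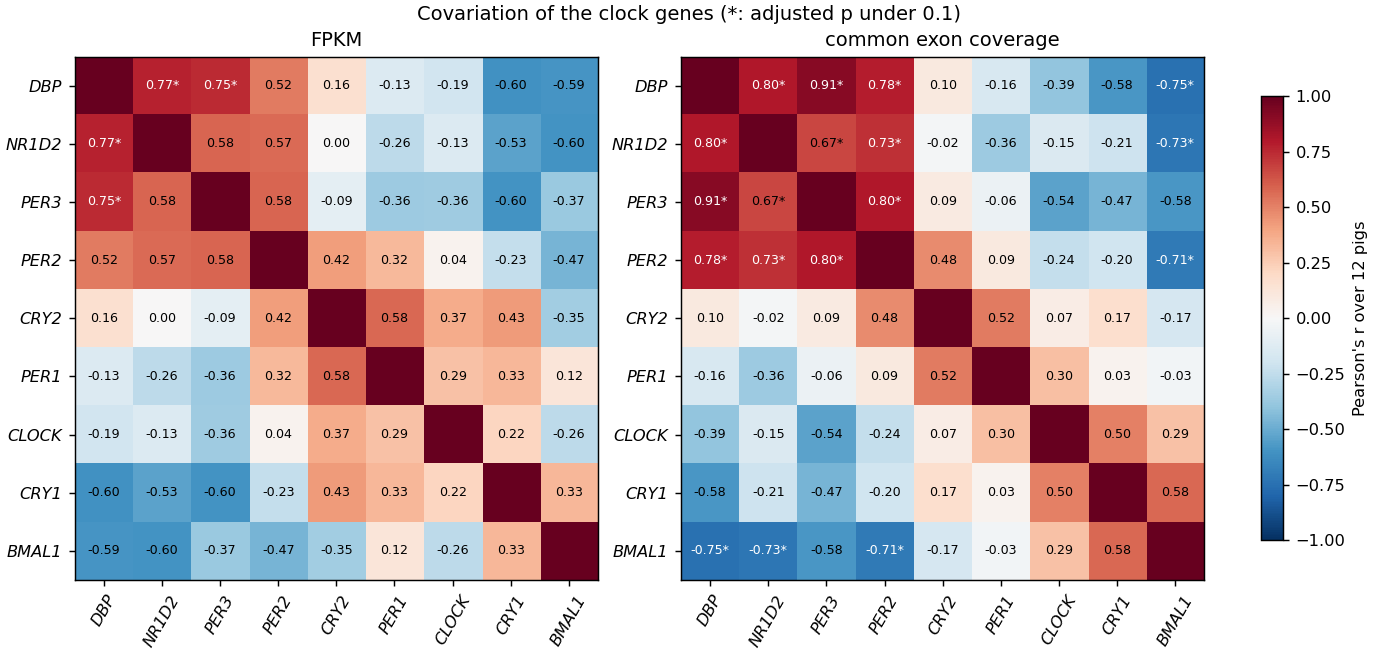
Pearson's r over the 12 pigs for each pair of 9 clock genes (colour and number in each square, from -1 to 1), on FPKM and on common exon coverage, with asterisks at an adjusted p under 0.1. *DBP*, *PER3*, *PER2* and *NR1D2* are positive with each other, with r of up to 0.91, and *BMAL1* is negative with all 4, with r down to -0.75.

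The number of pairs that passed changed with the pigs left out, which also leaves fewer pigs to test. Without H5 and L3 0 of 36 pairs passed on FPKM, with 0 at an unadjusted p under 0.05, and 0 passed on common exon coverage, with 4 at an unadjusted p under 0.05 (permutation tests). Without H5 alone 0 pairs passed on FPKM and 1 on common exon coverage, *DBP* with *PER3*, and without L2 alone 0 and 5. Without L3 alone 0 and 8 passed. On FPKM 0 also passed without H2, H3, H6, L1 or L5 alone, 1 without H4 or L4 and 3 without L6. Within the 6 H or the 6 L pigs 0 pairs passed on either measure. With the group means removed, 1 pair passed on FPKM and 11 on common exon coverage.

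**Figure D4:**
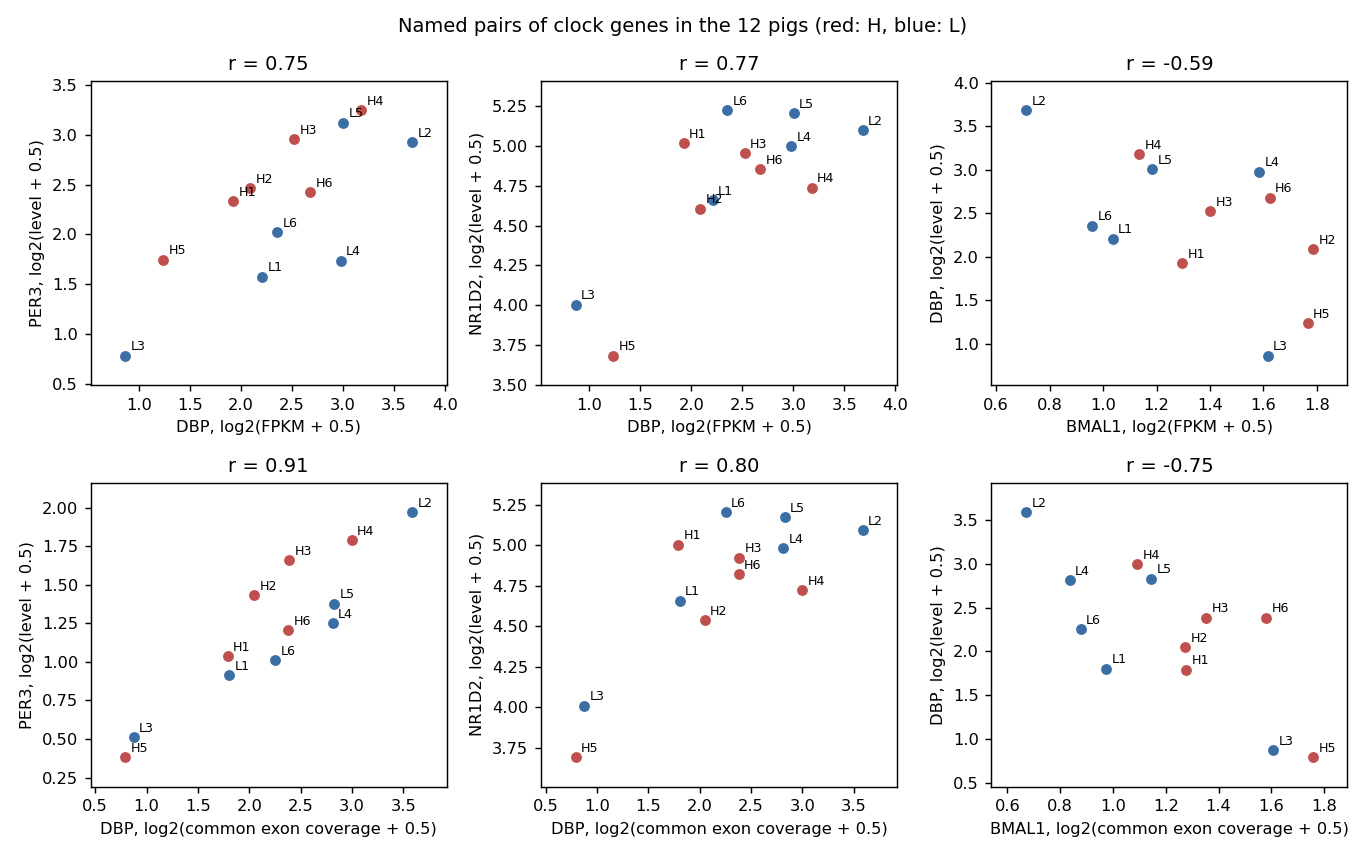
Levels of *DBP* with *PER3*, *DBP* with *NR1D2* and *BMAL1* with *DBP* in the 12 pigs, on log2(level + 0.5) for FPKM (top row) and common exon coverage (bottom row), with H pigs in red and L pigs in blue. H5 and L3 sit apart at the low end of *DBP*, and r is 0.75, 0.77 and -0.59 in the top row and 0.91, 0.80 and -0.75 in the bottom row.

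The first principal component of the 9 genes, given as a description, held 42.6% of their variance on FPKM and 49.9% on common exon coverage. The weights on common exon coverage were 0.45 for *DBP*, 0.43 for *PER3*, 0.40 for *PER2* and 0.39 for *NR1D2*, against -0.40 for *BMAL1*. The pigs at its low end were H5 and L3, with scores of -4.12 and -3.19, and those at its high end were L2 and H4, with 3.30 and 2.19. On FPKM the lowest were L3 and H5, at -3.66 and -3.42, and the highest L2 and L5, at 2.47 and 2.44, followed by H4 at 1.75.

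The correlations of *DBP* were also set against those over all genes. On FPKM r of *DBP* was at least 0.7 with 364 genes (2.93% of those tested) and -0.7 or lower with 372 (3.00%), and *BMAL1* had 81 (0.653%) and 110 (0.887%). Among all genes ranked by r with *DBP*, *NR1D2* lay at percentile 98.7 and *PER3* at 98.3, or at 99.9 on common exon coverage. *BMAL1* lay at percentile 7.05 on FPKM and 3.11 on common exon coverage. By likeness over the 12 pigs, the genes with the highest r to *DBP* on FPKM included *ZBTB18* (0.94), *CELSR2* (0.91), *AHCYL1* (0.90) and *MYLK2* (0.90), and on common exon coverage the r of these 4 lay between 0.88 and 0.94. The 5 lowest were *FAM214B* (-0.96), *KATNBL1* (-0.94), *NARS* (-0.92), *CREM* (-0.92) and *HSPH1* (-0.91), with r between -0.93 and -0.71 on common exon coverage. For *BMAL1* the highest were *ARPC5L* (0.90), *ADCY9* (0.87), *PLEKHA6* (0.85), *STOX2* (0.85) and *ZSCAN20* (0.84), but on common exon coverage *ADCY9* was at -0.37. The lowest for *BMAL1* included *USP22* (-0.88), *DHX40* (-0.87), *UFL1* (-0.86) and *MVB12B* (-0.85). These genes were picked for their r out of 12406 genes, so no p is given.

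Other regulators of the clock, a list of 21 genes of which 17 were tested, gave 0 calls between H and L in limma on FPKM and 0 at an unadjusted p under 0.05. Their median log2 fold change was -0.08, with 4 of 17 higher in H, beside a median of 0.003 over all genes tested. *BHLHE40* and *BHLHE41* (DEC1 and DEC2) encode repressors that compete for E-boxes. *BHLHE40* had a lowest value of 8.24, a median of 11.8 and a highest value of 45.8 FPKM in H and 16.7, 29.9 and 47.1 in L, with a log2 fold change of -0.85 (SE 0.42; limma adjusted p = 0.693). *BHLHE41* had medians of 11.3 and 15.7 FPKM and a log2 fold change of -0.31 (SE 0.17; limma adjusted p = 0.728). The groups overlapped for both genes. *GSK3B*, a kinase that phosphorylates clock proteins, had -0.29 (limma adjusted p = 0.730), and *FBXL21*, which helps to set the turnover of CRY proteins, had 0.48, a value that the filter conditions, since its mean reached 0.5 FPKM in H alone (0.697 against 0.332 in L). By common exon coverage the unadjusted p of limma was 0.0424 for *BHLHE40* (log2 fold change -0.87) and 0.00683 for *BHLHE41* (-0.54), and neither passed the adjustment (adjusted p = 0.489 and adjusted p = 0.385).

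Of 26 genes known as clock outputs, 25 were tested and 0 were called between H and L in limma. Their median log2 fold change was 0.02, with 14 of 25 higher in H, and 2 higher and 1 lower at an unadjusted p under 0.05, beside 7.28% of all genes. *LPL*, the lipase that frees fatty acids for uptake, had a median of 44.9 FPKM in H (25.6 to 71.0) and 27.6 in L (20.2 to 28.5). Its log2 fold change was 0.72 (SE 0.23; limma adjusted p = 0.584; exact permutation test, two-sided, p = 0.0260). *UCP3*, a mitochondrial carrier of muscle, had medians of 38.3 and 26.9 FPKM and 0.48 (SE 0.19; limma adjusted p = 0.651), and *FBXO32*, a ubiquitin ligase of muscle atrophy, had medians of 59.5 and 103 FPKM and -0.59 (SE 0.26; limma adjusted p = 0.681). *CDKN1A*, an inhibitor of the cell cycle, had 0.76 (SE 0.45; limma adjusted p = 0.736). All 4 pairs of groups overlapped. *PFKFB3*, also on this list, is given by the authors as differentially expressed and lower in H. Here its log2 fold change was -0.63 (SE 0.39; limma adjusted p = 0.751).

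The genes of both lists were also set against *BMAL1* and *DBP* over the pigs, in 82 relations on FPKM, of which 2 passed at an adjusted p under 0.1 and 10 had an unadjusted p under 0.05 (permutation tests, two-sided). Both were negative relations with *DBP*, and the genes in them were chosen after their values were seen. On FPKM r with *DBP* was -0.7 or lower for 1 of 17 regulators and 1 of 25 outputs, beside 3.00% of all genes tested. It was at least 0.7 for 0 of 17 and 1 of 25, beside 2.93%. *NFIL3*, which encodes the repressor that binds the same D-boxes as DBP, had r of -0.84 with *DBP* (permutation test, p = 0.00088, adjusted p = 0.0361) and rho of -0.79 (p = 0.00344, permutation test). It was highest in the 2 pigs with the lowest *DBP*, at 5.80 FPKM in H5 and 7.93 in L3, against 0.951 to 3.18 in the other 10. Without L3 and L2, the 2 pigs farthest from the median of *DBP* on FPKM, r was -0.74. That value still holds H5, and r without both H5 and L3 is not given here. *PDK4*, the kinase that slows the entry of glucose carbon into the mitochondrial cycle, had r of -0.84 with *DBP* (permutation test, p = 0.00065, adjusted p = 0.0361) and rho of -0.85. It ran from 73.1 FPKM in L2, the pig with the highest *DBP*, to 434 in H5, and without L3 and L2 r was -0.87. Of 78 relations on common exon coverage 9 passed, and *PDK4* with *DBP* had r of -0.91 (permutation test, adjusted p = 0.00546) and rho of -0.97. Over all genes on this measure, r with *DBP* was at least 0.7 for 4.47% and -0.7 or lower for 4.64%. *HLF*, a paralogue of *DBP*, had r of 0.81 with it on common exon coverage (permutation test, adjusted p = 0.0304) and 0.39 on FPKM.

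**Figure D5:**
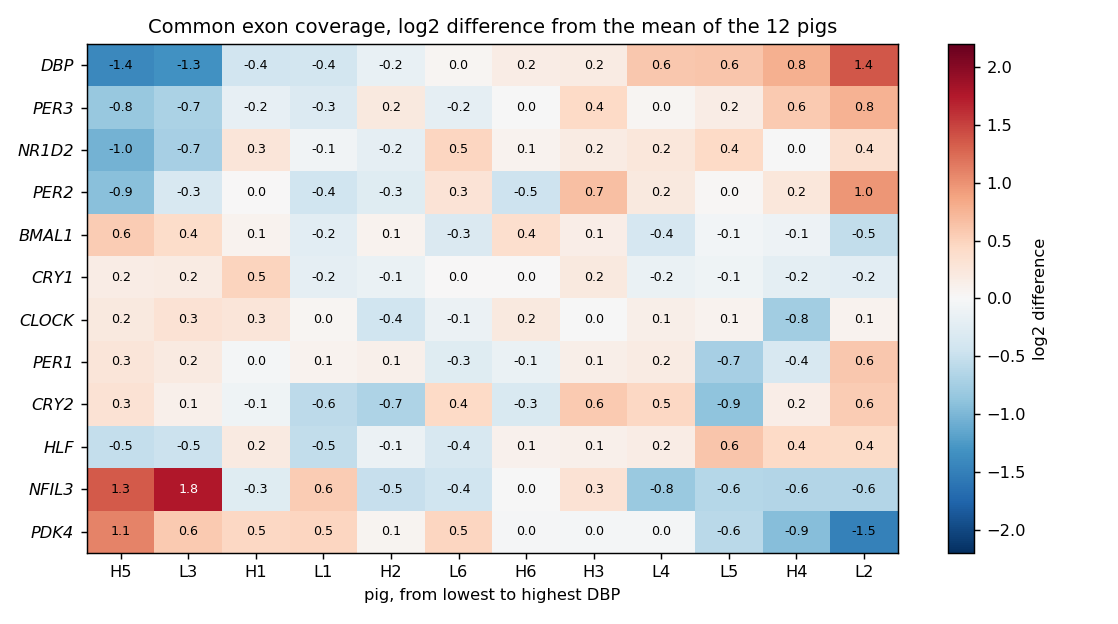
Common exon coverage of 9 clock genes and of *HLF*, *NFIL3* and *PDK4* (rows) in the 12 pigs, ordered from the lowest to the highest *DBP* (columns), as the log2 difference from the mean of the pigs (colour and number). In H5 and L3, on the left, *DBP* lies at -1.42 and -1.34 and *NFIL3* is high, and in L2, on the right, *DBP* lies at 1.37 and *PDK4* is low.

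Library measures and marker sums were compared with the 9 clock genes in 99 relations over the pigs, of which 2 passed at an adjusted p under 0.1 and 13 had an unadjusted p under 0.05 (permutation tests, two-sided). Both that passed were with the summed FPKM of 7 heat shock genes, which include *HSPH1*. The largest parts of the sum were *HSPB1*, with means of 1766 FPKM in H and 2903 in L, and *HSPA8*, with 438 and 615. Taken singly, the 7 genes had r with *DBP* from -0.91 for *HSPH1* to -0.05 for *DNAJB1*, which was above 0 in 8 libraries. For *HSPB1* and *HSPA8* r was -0.86 and -0.79. *DBP* had r of -0.85 with this sum (permutation test, p = 0.00025, adjusted p = 0.0247), rho of -0.71 (p = 0.0121, permutation test) and, without the 2 pigs with the most distant sums, r of -0.68. *PER3* had r of -0.82 (permutation test, p = 0.00092, adjusted p = 0.0455), rho of -0.64 and, without the 2 pigs, r of -0.64. The heat shock sum was 10379 in L3 and 3959 in H5, the highest of each group, and 1305 to 3723 in the other 10 pigs. Neither relation passed without H4, H5 or L3 alone. *PER3* also had r of 0.72 with the number of transcripts and 0.73 with the percentage of transcripts of a single exon, both lowest in L3 (permutation tests, adjusted p = 0.160 for each). The FPKM of *PER3* itself sums unstranded single-exon pieces where they were assembled, as in H4 but not in L3. Its relations with these 2 measures are therefore in part built in. With group means removed 6 relations passed, among them the number of transcripts with *DBP* (r of 0.80, adjusted p = 0.0416) and with *PER3* (r of 0.69, adjusted p = 0.0711), and the percentage of single-exon transcripts with *DBP* (r of 0.83, adjusted p = 0.0584; permutation tests). *NR1D2* and *DBP* had r of 0.64 and 0.60 with coverage per FPKM, a measure of depth that ran from 7.52 in H5 to 11.6 in H4 (permutation tests, adjusted p = 0.279 and adjusted p = 0.336). The part of depth, of the number of transcripts and of the heat shock genes in the correlations of the clock genes was not tested.

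Marker sums of cell types and that of immediate early genes, which mark no cell type, overlapped between H and L. The sum of 10 adipocyte markers was 66.9 to 166 FPKM in H and 38.8 to 90.2 in L, that of 10 immediate early genes 35.8 to 191 in H and 91.1 to 390 in L, and that of 6 fibroblast markers 145 to 569 and 172 to 699. Gene by gene, 9 of 9 adipocyte, 3 of 3 erythroid, 5 of 6 fibroblast and 4 of 5 macrophage genes tested on FPKM were higher in H. Their median log2 fold changes were 0.82, 0.96, 0.21 and 0.23. Of the 10 immediate early genes 0 were higher in H, with a median of -0.84. No gene of these lists was called in limma. *LEP* and *AHSP* passed the filter only through H and *EGR2* only through L. The sum of the endothelial markers was 51.6 to 120 FPKM in H and 36.0 to 97.3 in L, with all 6 tested genes higher in H, and had r of 0.40 with *BMAL1* (permutation test, adjusted p = 0.518). Of these *KDR* and *TEK*, chosen after their values were seen, had r of 0.82 and 0.70 with *BMAL1*, given as a description over 12 pigs. The other tested ones, *PECAM1*, *CDH5*, *VWF* and *ERG*, had r of 0.35, 0.39, 0.33 and 0.33. On common exon coverage r was 0.69 and 0.59 for *KDR* and *TEK*, and 0.19, 0.19, -0.24 and 0.13 for the others. The sum of the erythroid markers was 85.7 to 299 FPKM in H (median 235) and 73.1 to 162 in L (median 92.7), and that of 6 macrophage markers was up to 18.3 in H and 6.86 to 20.2 in L. The fibroblast sum had r of -0.75 with *CRY1* on FPKM (permutation test, adjusted p = 0.150) and -0.07 on common exon coverage. The sum of 9 skeletal muscle markers was 31021 to 48686 FPKM in H and 32576 to 46125 in L, and its r with *BMAL1* was -0.60 (permutation test, adjusted p = 0.336). The part of these cells and of the immediate early genes in the levels of the clock genes was not tested.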

How the data were processed

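Paired-end reads were trimmed by the authors (Trim Galore) and aligned with TopHat2 2.1.0 on Sscrofa11.1, and Cufflinks 2.2.1 was run on every library separately to assemble and quantify transcripts. The deposited files give, per the file headers and rows, assembled transcripts with their exons, FPKM and coverage, and no gene names. Here transcripts on chromosomes were assigned to genes of the RefSeq annotation of Sscrofa11.1 by the same strand and the most shared exonic bases, and unstranded ones to the gene holding at least 50% of them. Of 170957 introns 97.0% had GT-AG ends on this sequence. The FPKM of a gene were summed, with 0 where nothing was assembled, and scaled by median ratios over 10470 genes. A transcript assembled in pieces is counted more than once in such a sum. Assigned transcripts held 41.5 to 56.1% of the coverage, and depth per gene is known only through this coverage. Testing covered genes whose mean reached 0.5 FPKM in H or in L, as log2(FPKM + 0.5), by limma 3.58.1 (R 4.3.3, variance trend, two-sided, Benjamini-Hochberg over 12406 genes, threshold 0.1). The authors' Cuffdiff test could not be repeated without alignments. Exact permutation tests went through the 924 ways to split the pigs 6 to 6, with a smallest p of 0.00216. Correlations used log2 values, 100000 permutations and Python 3.11.15, with adjustment over the pairs or relations of each family. Common exon coverage needed at least 100 bases and was available for 10165 genes. The individual numbers of H and L pigs do not mark shared animals or batches in the labels. The fit was tested on simulated data. All clock genes, the 4 genes of smallest p and those with p under 0.05 in each list, and the 5 most and least alike to *BMAL1* and *DBP* were named by rule, apart from 2 of the genes most or least alike, which are not reported here, as were *MYLPF*, *TNNC2* and *CKM*. *NFIL3*, *PDK4* and *HLF* were chosen after their values were seen, and *PFKFB3* is named because the authors list it as differing. The genes, lists, pairs and tests were chosen with earlier results of these data known. Alternatives were other pseudocounts (0.1 and 1), filters, scalings and fits, annotated intron chains only, and pigs left out.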

Additional observations from a re-analysis of the deposited data

Results flagged for a closer look

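In 37 groups of 6 pigs, the highest and the lowest value were compared with their nearest neighbour by Dixon's ratio of gap to range, at its critical value for 95%. Chance alone flags about 1 in 20 groups, and 2 values stood apart. The FPKM of *CRY1* in H5 was 9.66, with the nearest other H pig at 5.46 (ratio 0.781). It was the sum of separately assembled pieces, and in common exon coverage H5 lay at 3.29, below H1 at 4.29 and H3 at 3.42. H5 was also the H pig with the lowest *DBP* and *NR1D2*. The FPKM of *CLOCK* in H3 was 5.22, with the nearest other H pig at 5.87 (ratio 0.633), in a group whose FPKM were close together. The sums of H2 and H4 in this group held pieces that lie mostly in *TMEM165*.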

How the results depend on the processing

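The counts of clock genes and of genes of both lists called between H and L were 0 under all alternatives run. The fold changes of *BMAL1*, *PER3*, *NR1D2* and *DBP* kept their sign in each of them, with ranges leaving out 1 pig of 0.23 to 0.41, 0.25 to 0.72, -0.40 to -0.032 and -0.57 to -0.011. The number of pairs of clock genes that covaried on FPKM, 2, was 0 with a pseudocount of 1, with annotated intron chains only, with Spearman's rho, within H, within L, without H4 and L3, without H5 and L3 and without the 2 farthest pigs, 1 with group means removed, 7 on exon coverage and 9 on common exon coverage. Leaving out 1 pig gave 0 to 3. For the named pairs, also 2, the same settings gave 0, group means removed 1, exon coverage 6 and common exon coverage 7, and leaving out 1 pig 0 to 2. The 9 pairs on common exon coverage became 0 within H, within L, without H5 and L3 and without the 2 farthest pigs, 1 with Spearman's rho, and 1 to 11 leaving out 1 pig. Relations with library measures and marker sums, 2, became 0 with Spearman's rho, without the 2 farthest pigs and without H4 and L3, 1 on FPKM as deposited and 6 with group means removed, and 0 to 5 leaving out 1 pig. With annotated intron chains only, signs turned for *CLOCK* (1.39), *PER2* (-1.20), *CRY2* (1.24) and *BHLHE41* (0.72), and for r of *CRY1* with *CRY2* (-0.23), *DBP* with *PER1* (0.28) and *PER1* with *PER2* (-0.045). In this setting a library without a matching chain is listed at 0. That held for *CLOCK* in L2, L3 and L6, for *CRY2* in L1 and L5 and for *PER2* in H1, H2, H5 and H6. *PER1* was above 0 in L5 alone. The part of these zeros in the turned signs was not tested. The fold change of *PER1* turned to 0.024 with quantile normalization, 0.016 with array weights and 0.093 without H4 and L3, and leaving out 1 pig gave -0.21 to 0.10. That of *PER2* turned to -0.050 without H4 and L3 and to -0.24 on exon coverage and on common exon coverage, with -0.041 to 0.22 leaving out 1 pig. That of *CRY1* ran from -0.064 to 0.22 leaving out 1 pig, and that of *CRY2* was 0.0048 on exon coverage. *BMAL1* with *CLOCK* was 0.31 on exon coverage, 0.29 on common exon coverage and 0.064 without the 2 farthest pigs, with -0.61 to 0.024 leaving out 1 pig. *BMAL1* with *CRY2* was 0.15 without the 2 farthest pigs, and on common exon coverage 0.14 within H and -0.32 to 0.0067 leaving out 1 pig. *BMAL1* with *PER1* was -0.0022 on exon coverage, -0.028 on common exon coverage and -0.0087 without H5 and L3. By common exon coverage it was 0.10 with Spearman's rho, 0.61 within H, 0.18 without the 2 farthest pigs and -0.19 to 0.33 leaving out 1 pig. *DBP* with *PER1* was 0.15 within L, 0.048 without H4 and L3, 0.10 without H5 and L3 and -0.52 to 0.015 leaving out 1 pig, and on common exon coverage 0.071 within L, 0.14 without H5 and L3 and 0.14 without the 2 farthest pigs. *PER1* with *PER2* on common exon coverage was -0.042 with Spearman's rho, -0.35 within H, -0.39 without the 2 farthest pigs and -0.32 to 0.28 leaving out 1 pig. Pigs of the same number did not deviate together (r of -0.08 to 0.06 over genes), so the numbers are names, and with the individual number as replicate block 0 clock genes and 0 genes of both lists were called and the median fold change of the clock genes was -0.03.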
